A study of Mus musculus with 16 samples.

Results

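The 4 H3K27ac peak lists of the series were analysed, 2 from Mettl14 control and 2 from Mettl14 knockout mouse embryonic stem cells (mESCs). They hold 59390 of the 117176 peaks in the 12 deposited lists, and were taken by the mark named in the title of each library. All cells are of the C57BL/6 strain and were grown in serum medium with LIF, the GSK3 inhibitor CHIR99021 and the MEK inhibitor PD0325901, which hold mESCs in a naive state. The titles write the knockout as CKO, a conditional knockout. The labels used here name no Cre driver, no clone and no separate cultures, so the spread between the replicates of a condition may be technical. The antibody field of all 4 H3K27ac libraries names the H3K4me3 antibody. The libraries are described here by the mark of their titles, and which antibody was used cannot be told.

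METTL14 forms, with METTL3, the core of the complex that writes N6-methyladenosine on RNA, and the series asked how histone marks change when it is lost. H3K27ac is written by the acetyltransferases EP300 and CREBBP and is removed by histone deacetylases. It marks active promoters together with H3K4me3, and active enhancers, which lie inside genes or between them and largely lack H3K4me3. In mESCs the broadest H3K27ac domains are known to lie at genes and enhancers of the pluripotency network and at the miR-290 microRNA cluster.

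A peak is given as a position and a width and carries no height, so the results are counts of peaks and called bases. A peak or region was called promoter where it touched the 1000 bp either side of an annotated start of transcription. It was called gene-body where it touched a gene but no such window, and intergenic otherwise. A strand was known for 79.9% of protein-coding genes, and for the others the window was set at both ends of the gene. Overlapping peaks were joined across the 4 lists, which gave 36453 regions. A region is named knockout-only where both knockout lists, but no control list, called it, and control-only in the reverse case.

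Sequences under 4 promoter regions, at which the lists of the conditions differed as described below, are shown from RefSeq (GRCm38.p6, the mm10 assembly), 250 bases before the start of transcription, 5′ to 3′ on the strand of the gene. Capitals mark matches to the GC box GGGCGG, the CCAAT box CCAAT, the TATA box TATAAA, the ETS site CCGGAAG, the E-box CACGTG, the NRF1 half-site GCGCATGC or the octamer ATGCAAAT on either strand. Dyrk1a (chr16:94569956-94570205, plus strand) and Ddx17 (chr15:79546742-79546991, minus strand) were knockout-only. Rhoa (chr9:108306547-108306796, plus strand) and Pml (chr9:58249787-58250036, minus strand) were control-only.
Dyrk1a: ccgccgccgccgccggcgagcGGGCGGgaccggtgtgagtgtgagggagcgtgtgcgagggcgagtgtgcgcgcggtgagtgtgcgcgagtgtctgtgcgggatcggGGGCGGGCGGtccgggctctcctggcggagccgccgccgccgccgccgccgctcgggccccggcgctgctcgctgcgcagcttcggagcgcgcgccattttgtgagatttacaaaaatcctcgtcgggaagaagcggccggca
Ddx17: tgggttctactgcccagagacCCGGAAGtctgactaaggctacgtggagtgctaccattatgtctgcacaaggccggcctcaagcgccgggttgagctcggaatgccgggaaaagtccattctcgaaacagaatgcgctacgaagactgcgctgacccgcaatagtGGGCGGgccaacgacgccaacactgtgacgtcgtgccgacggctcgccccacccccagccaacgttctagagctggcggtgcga
Rhoa: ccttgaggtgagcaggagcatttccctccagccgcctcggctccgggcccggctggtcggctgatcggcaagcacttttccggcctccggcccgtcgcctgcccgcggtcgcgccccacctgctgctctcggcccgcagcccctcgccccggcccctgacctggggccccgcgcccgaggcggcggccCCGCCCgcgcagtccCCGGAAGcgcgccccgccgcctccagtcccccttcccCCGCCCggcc
Pml: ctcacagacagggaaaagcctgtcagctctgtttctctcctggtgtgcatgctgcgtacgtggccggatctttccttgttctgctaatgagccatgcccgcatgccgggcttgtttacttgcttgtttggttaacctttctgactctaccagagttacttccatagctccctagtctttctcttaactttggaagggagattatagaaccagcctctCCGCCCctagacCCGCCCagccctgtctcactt
They held 43, 23, 33 and 7 CpG dinucleotides in this order. Each had at least 1 GC box, with 3 in Dyrk1a, 1 in Ddx17, 2 in Rhoa and 2 in Pml, and Ddx17 and Rhoa had 1 ETS site each.

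The widest region of all 4 lists covered the miR-290 cluster (chr7:3199189-3220848), whose microRNAs promote the rapid cell cycle of mESCs. Its called bases were 20743 and 20813 in the control lists and 21106 and 21562 in the knockout lists. Both knockout values lay above both control values, with a log2 ratio of the means of 0.04. The mature sequences in the RefSeq table used here that lie in the region and carry the seed stretch AAGUGC are shown with the seed, bases 2 to 8, in capitals.
mmu-miR-290a-3p: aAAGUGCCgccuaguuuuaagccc
mmu-miR-291a-3p: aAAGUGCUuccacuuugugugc
mmu-miR-291b-3p: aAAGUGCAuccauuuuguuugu
mmu-miR-294-3p: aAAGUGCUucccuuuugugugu
mmu-miR-295-3p: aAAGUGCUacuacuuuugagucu
Of the sequences shown, the seed AAGUGCU was shared by miR-291a-3p, miR-294-3p and miR-295-3p.

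At Mettl14 itself (chr3:123368295-123385990), 1 H3K27ac peak of 501 bp lay at the higher-coordinate end in control replicate 1 and none in control replicate 2. The knockout lists held 1 peak each there, of 629 and 627 bp. The mark at one end of the gene does not tell if its coding sequence is intact, so the knockout label is not checked by these peaks. At Mettl3 (chr14:52294841-52308741) the control lists held no peak, while both knockout lists held 1 peak within 1000 bp of the annotated start, of 501 and 1408 bp.

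Most merged regions came from 1 list alone, more often away from promoters. Of the merged regions 68.3% came from a single list, namely 50.6% of promoter, 75.5% of gene-body and 71.3% of intergenic regions. Of the promoter peaks of the knockout lists, 57.4% and 57.6% overlapped a peak of the other knockout list. Of those of the control lists, 46.0% (replicate 1) and 54.2% (replicate 2) overlapped a peak of the other control list, while 58.7% to 61.9% overlapped a given knockout list. The control lists thus shared more promoter peaks with the longer promoter sets of the knockout than with each other. Of gene-body peaks 26.3% to 32.1%, and of intergenic peaks 31.5% to 37.4%, overlapped the list of the other replicate. With 2 lists against 2 the exact two-sided permutation test used for single values cannot give a p below 0.33.

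The knockout lists held more promoter peaks, while the numbers of gene-body and intergenic peaks did not separate the conditions. Promoter peaks numbered 4065 and 3441 in the control lists and 5006 and 5013 in the knockout lists, a 1.34-fold difference of the means (3753 ± 441 against 5009.5 ± 4.95, SD, n = 2 each, exact permutation p = 0.33). The distance from the higher control list to the lower knockout list exceeded the gap between the control replicates. Gene-body peaks numbered 7239 and 6368 in control and 6576 and 6325 in knockout lists (exact permutation p = 0.667). Intergenic peaks numbered 4237 and 3711 against 3689 and 3720 (exact permutation p = 0.667). In both of these classes control replicate 1 stood highest and control replicate 2 lay close to the knockout lists.

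As shares of each list, promoter peaks made up 26.2% and 25.5% of the control lists and 32.8% and 33.3% of the knockout lists. The means lay 7.23 points apart (exact permutation p = 0.33). Gene-body peaks took 46.6% and 47.1% against 43.1% and 42.0%, and intergenic peaks 27.3% and 27.45% against 24.2% and 24.7%. The shares of a list sum to its whole, so the lower gene-body and intergenic shares are not independent of the higher promoter share. In bases, promoter peaks covered 4.62 and 3.84 Mb in control and 5.96 and 6.09 Mb in knockout lists (1.43-fold). Gene-body peaks covered 6.51 and 5.72 Mb against 6.17 and 6.06 Mb, and intergenic peaks 4.11 and 3.72 Mb against 3.80 and 3.84 Mb, with overlapping groups in both. With control replicate 1 or 2 left out, the share of promoter peaks still differed by 7.58 or 6.88 points.

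**Figure D1:**
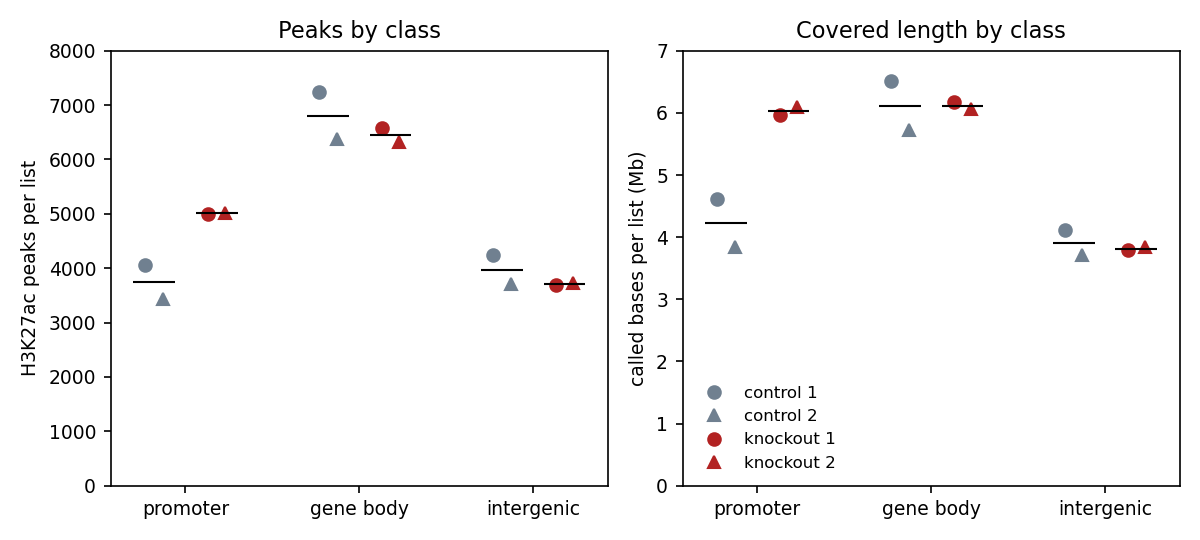
Number of H3K27ac peaks per list (left) and called bases per list in Mb (right) for promoter, gene-body and intergenic peaks. Each point is 1 list (circles replicate 1, triangles replicate 2, grey control, red knockout) and the short lines are means of 2 lists. The knockout points lie above both control points for promoters alone, at 5006 and 5013 peaks against 4065 and 3441.

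Calls restricted to 1 condition followed the same division. Of 9031 promoter regions, 579 were knockout-only, 6.41% of those merged, and 139 were control-only, or 1.54%. Of 17839 gene-body regions, 452 were knockout-only (2.53%) and 422 control-only (2.37%). Of 9583 intergenic regions, 267 were knockout-only (2.79%) and 256 control-only (2.67%). These regions were mostly narrow: the median called bases of knockout-only promoter regions were 644 and 664, near the smallest peak width of 501 bp. Leaving out 1 list changes what a call requires and moved all of these counts by over 1.5 times, giving between 949 and 2057 promoter regions in the knockout alone and between 322 and 1164 in the control alone. Without knockout replicate 1 or 2 a single knockout call suffices, which gave 2017 and 2057 of them. Without control replicate 1 or 2 a single control call suffices, while a knockout-only call still needs both knockout lists. The counts were then 1108 and 949 knockout-only against 894 and 1164 control-only promoter regions. The order turned without control replicate 2, but the 2 counts follow unlike rules.

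By the smaller of the calling lists' called bases, the first knockout-only promoter region lay at an unnamed predicted gene inside Ctbp2, a transcriptional corepressor gene (chr7:133121258-133125070), with 3813 and 3289 bases. The Dyrk1a region (chr16:94568710-94572183) followed with 3474 and 2973 bases over the promoter of this protein kinase gene. Tfcp2l1, which encodes a transcription factor of naive pluripotency, had 2685 and 3307 bases at chr1:118624014-118627320. Its region lay 625 bp from the annotated start, and the peak of knockout replicate 2 alone reached the 1000 bp window. The other named members of the first 8 were Txnl4a, a spliceosome gene (2828 and 2380 bases), the RNA helicase gene Ddx17 (2583 and 2368), the kinase gene Tlk2 (2353 and 2296) and Ahnak (2276 and 3029). A region at another predicted gene, 111.6 kb from the start of Pawr, had 2748 and 2647 bases.

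Control-only promoter regions were fewer, and the first had fewer called bases than the first knockout-only region. The first, at the zinc finger gene Zfp958, had 2987 and 1592 bases. Pml, which encodes the scaffold of PML nuclear bodies (chr9:58248008-58250106), had 1399 and 1889. Rhoa, a small GTPase gene whose region also touched Tcta (chr9:108306173-108307999), had 1364 and 1707. The others with a named gene were Snhg5, a snoRNA host gene (1281 and 1292), Capns1, the small subunit of calpains (1113 and 1872), and the divergent purine synthesis genes Ppat and Paics (1072 and 1100). Regions at predicted genes lay 86.3 kb from the start of Umad1 (1298 and 1523 bases) and 43.8 kb from that of Atp1b1 (1318 and 1218).

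Counted over genes, 3652 and 3055 protein-coding genes had a promoter peak in the control lists and 4714 and 4760 in the knockout lists (1.41-fold, exact permutation p = 0.33). Of 21900 protein-coding genes, 1477 were called in all 4 lists (6.74%), 620 were knockout-only (2.83%) and 112 were control-only (0.511%). A further 14555 had no promoter peak in any list.

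Regions called in all 4 lists were also wider in the knockout at promoters. Over 1469 such promoter regions the median called bases were 1388 and 1283 in control and 1645 and 1714 in knockout lists. On the log2 scale the list medians differed by 0.33 (exact permutation p = 0.33), and 71.6% of the regions were wider in the knockout by their mean. Over 842 gene-body regions the medians were 2045 and 1819.5 bases against 2082.5 and 2123 (log2 difference 0.12). Over 602 intergenic regions they were 2092.5 and 2076 against 2130.5 and 2142 (log2 difference 0.04). In each class both knockout medians lay above both control medians (exact permutation p = 0.33). Without control replicate 1 the gene-body difference was 0.23 and the intergenic difference 0.15, and without either knockout replicate the intergenic lists overlapped. The separation in the 2 distal classes was small, and 52.0% of gene-body and 49.2% of intergenic regions were wider in the knockout, against 71.6% of promoter regions. Among peaks wider than 501 bp alone, the promoter difference was 0.27, the gene-body difference 0.05 with overlapping lists, and the intergenic difference -0.03.

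**Figure D2:**
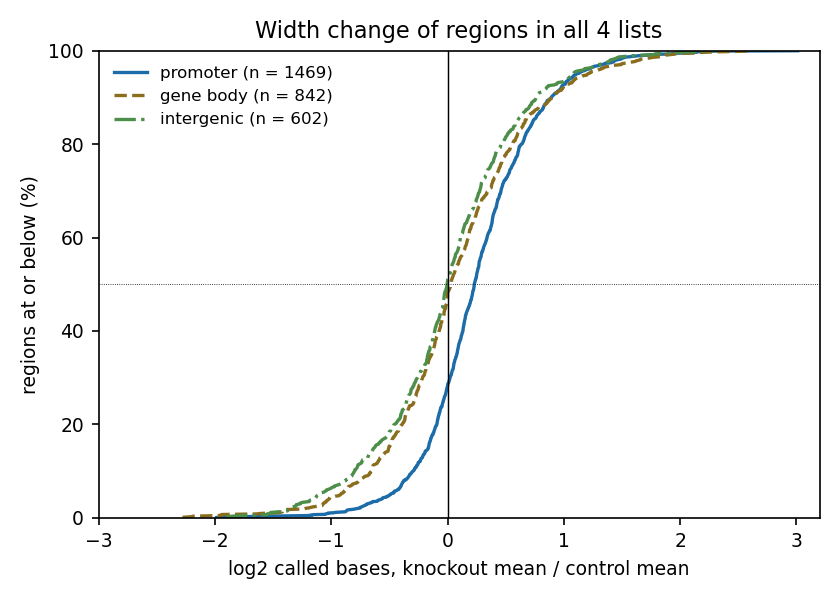
Cumulative share of regions called in all 4 lists (y axis, %) against the log2 ratio of mean called bases, knockout over control (x axis), for promoter (solid), gene-body (dashed) and intergenic (dot-dashed) regions. The promoter curve lies to the right, with a median of 0.23 against 0.03 and -0.004.

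In all, both knockout lists had more called bases than both control lists at 800 of the 2913 regions in all 4 lists, or 27.5%, and fewer at 365, or 12.5%. At promoters the counts were 501 (34.1%) and 103 (7.01%), at gene bodies 184 (21.9%) and 144 (17.1%), and at intergenic regions 115 (19.1%) and 118 (19.6%). Among promoters, the gap between the nearest lists was largest at a predicted gene in Crlf2, a cytokine receptor gene (686 and 501 bases against 5573 and 3993). Next came Map4, a microtubule-associated protein gene (501 and 501 against 1902 and 2502), and Ppp2r1a, the scaffold subunit of protein phosphatase 2A (628 and 641 against 2362 and 3330). Bcl7b, a subunit of SWI/SNF remodelling complexes, had 501 and 501 against 1815 and 2002. Terc, the RNA template of telomerase (chr3:96414033-96419861), had 1061 and 1179 against 4208 and 4539. The shared region of the divergent genes Emc8 and Cox4i1 had 501 and 501 against 2023 and 1775.

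The reverse was seen at fewer promoters. Rnaseh1, which encodes a nuclease for RNA in RNA-DNA hybrids, had 2029 and 2571 bases in control and 674 and 501 in knockout lists. Ppil1, a spliceosomal peptidyl-prolyl isomerase gene, had 1329 and 1759 against 501 and 501. The region of Mbd6 and the stress response gene Ddit3 had 3401 and 2334 against 1115 and 501. Cog4 and Sf3b3 shared a region with 1959 and 2110 against 1034 and 930, Tbc1d13 had 5037 and 2682 against 1448 and 501, and the Y RNA gene Rny1 had 876 and 1377 against 501 and 501.

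Of the 8 widest gene-body regions in all 4 lists, both knockout lists were wider at 2, narrower at 2 and overlapped the control lists at 4. The first by mean called bases lay in Etv5, an ETS factor gene of the pluripotent state (chr16:22398750-22417961, 20.4 kb from the start), with 13433 and 15175 bases in control and 15724 and 16242 in knockout lists, both above control. Myo10 (13414 and 14405 against 16456 and 13739), Mapt, the tau gene (12855 and 11583 against 12898 and 12685), Spats1 (12141 and 8533 against 11845 and 12912) and Gtf2ird1 (11346 and 7132 against 10761 and 11179) had overlapping lists. Cdh1, which encodes E-cadherin, the adhesion molecule of mESC colonies, had 6859 and 10846 against 13080 and 14004, with both knockout lists above. Tmem51 (14082 and 13886 against 10239 and 12845) and Etl4 (12156 and 11553 against 9821 and 11223) had both knockout lists below.

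Gene-body regions called in 1 condition were led by Pacsin2 in the knockout (chr15:83442582-83446235, 3561 and 3300 bases), 1.6 kb from the annotated start. Snx18, a sorting nexin gene (2550 and 2986), Mcf2 (2797 and 2453) and Map2k3os (2797 and 2128) were among those that followed, then Prcc (2086 and 2356), a predicted gene near Cabp1 (2083 and 2415) and Naa35 (2084 and 2019). The control-only regions were led by Dpp6 (3239 and 2444) and Rapgef1 (2787 and 2434). Jdp2, a repressor of AP-1 (2550 and 2208), Smad7, an inhibitor of TGF-beta signalling (2122 and 3141, 10.9 kb from a gene end), and Kit, the receptor of stem cell factor (1807 and 1660, 23.1 kb from the start), came next. Tulp3 (1647 and 1611), Fads6 (1340 and 1831) and the BCL6 corepressor gene Bcor (1274 and 1429) completed the 8.

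Among gene-body regions in all 4 lists, one in Cadm2, a cell adhesion molecule gene, had 501 and 501 bases in control and 2816 and 2137 in knockout lists. Abr (501 and 501 against 2606 and 1919), the phosphatase 2A subunit gene Ppp2r5e (501 and 683 against 4466 and 2314), Cdc14a (501 and 629 against 2062 and 2069) and the mRNA capping enzyme gene Rngtt (626 and 656 against 2041 and 2543) were others with a large gap in this direction. In the other direction stood Anks1 (2978 and 1885 against 501 and 501), Shroom3 (2771 and 1836 against 501 and 501), a predicted gene with Nwd2 as the nearest named start, at 81.0 kb (3637 and 3001 against 956 and 501), Cdh13 (2183 and 2066 against 834 and 771), the Mediator gene Med27 (1592 and 1086 against 501 and 501) and Smtnl2 (3031 and 2771 against 1282 and 629).

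Intergenic regions are given with the named protein-coding gene whose start is nearest, which need not be the gene they act on. The widest shared ones lay 8.0 kb from Zbtb44 (12554 and 10998 bases in control, 12638 and 12033 in knockout lists), 4.2 kb from Tnfsfm13 (12120 and 7919 against 13834 and 13915), 35.6 kb from Pawr (11264 and 11215 against 12488 and 9582) and 45.1 kb from Klf9 (9239 and 10664 against 9993 and 11509). Of these 4 the lists separated only at Tnfsfm13. Regions nearest to Diaph2 (9649 and 15245 against 4851 and 7626) and Loxl1 (9816 and 9717 against 8616 and 9214) had both knockout lists below, and that nearest to Paxip1 did not separate (9416 and 9267 against 8778 and 9735). They lay 787.3, 6.6 and 19.8 kb from the start of the gene named, in this order.

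The first knockout-only intergenic region lay 4.2 kb from Mog (2136 and 2830 bases). Regions nearest to Mesd (2220 and 2091), Eef1a1 (2554 and 1993), Dnajb9 (1986 and 2065), Fcgrt (2386 and 1972), Ang5 (1761 and 1992), Gadd45g (1738 and 1686) and Ttc9b (1573 and 2787) followed. Their distances to the start were 9.0, 37.5, 984, 6.9, 9.4, 128.2 and 4.9 kb in this order. By the smaller of the calling lists, the widest control-only region of the 3 classes was intergenic, 64.5 kb from Prdm1, which encodes the germ cell regulator BLIMP1 (chr10:44389179-44394255, 4350 and 3665 bases). Control-only intergenic regions nearest to Eps8 (2852 and 2309), Fam3c (2099 and 2783), Sestd1 (2403 and 1888), the sex determination gene Dmrt1 (1988 and 1823), Tmem17 (2028 and 1739), Lgals9 (2286 and 1471) and Rcc2 (1403 and 1761) came after it. Their distances to the start were 20.5, 82.8, 55.8, 23.5, 30.9, 16.2 and 10.6 kb in this order.

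Of the intergenic regions in all 4 lists, the largest gap in favour of the knockout lay 34.1 kb from Klf5, a Krüppel-like factor gene of the naive state (chr14:99347499-99350276, 501 and 501 against 2778 and 1687 bases). Other named regions in this direction were nearest to Thpo (788 and 805 against 2904 and 2550), Siglec1 (914 and 501 against 2679 and 3151), the PRC2 cofactor gene Jarid2 (1148 and 501 against 4805 and 3329), Klf3 (501 and 913 against 2442 and 2800) and Dynll2 (501 and 940 against 2339 and 2621). These lay 93.8, 8.4, 5.8, 60.1 and 11.5 kb from the start in this order. Regions nearest to Cyp2d12 (1651 and 1991 against 501 and 501), Ddc (1328 and 1374 against 501 and 501), Magi1 (2236 and 2308 against 677 and 908), Pik3c3 (2449 and 2532 against 1002 and 918), Atp11b (1424 and 1173 against 501 and 501) and Abra (1991 and 2293 against 641 and 853) had the largest gaps in favour of the control. These lay 2.8, 5.0, 317.0, 916.7, 32.5 and 34.8 kb from the start in this order.

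Distal peaks far from any start were slightly fewer in the knockout. Gene-body and intergenic peaks more than 10 kb from the nearest start of a named protein-coding gene numbered 7996 and 7001 in control and 6984 and 6893 in knockout lists, 0.925-fold (exact permutation p = 0.33). Beyond 50 kb they numbered 2927 and 2596 against 2539 and 2439, 0.901-fold (exact permutation p = 0.33). Control replicate 2 and knockout replicate 1 were close in both counts, and the separation between the conditions was smaller than the gap between the control replicates.

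Part of the naive and core pluripotency network carried promoter H3K27ac in both conditions. Of 25 listed genes 11 were called in all 4 lists, against 6.74% of all protein-coding genes, 2 were knockout-only (Zfp42 and Nr5a2) and 0 control-only. A further 5 (Esrrb, Dppa3, Utf1, Lin28a and Gbx2) had no promoter peak in any list, and the other 7 were called in other combinations of lists. Among genes called in all 4 lists, 35.9% had both knockout lists wider than both control lists and 5.69% narrower. Of the 11 pluripotency genes 3 were wider and 3 narrower. Klf4, a reprogramming factor gene, had promoter peaks of 1556 and 1081 bp in control and 4011 and 4357 bp in knockout lists. Tbx3, a T-box factor gene of the naive state, had 3628 and 2231 against 7438 and 5390 bp, and Nanog 8081 and 6431 against 8423 and 8321 bp. Klf2 had 8235 and 6843 against 6104 and 2935 bp, the Nodal co-receptor gene Tdgf1 5915 and 8031 against 5139 and 3305 bp, and Dppa5a 11205 and 11615 against 8786 and 10939 bp. At Sox2 (3566 and 3518 against 4504 and 2548 bp) and Fgf4 (1259 and 5338 against 4290 and 7520 bp) the lists overlapped. Nr5a2, an orphan nuclear receptor gene, had 812 and 501 bp in the knockout lists. Among the 11 genes, no strand was known for Tbx3, Dppa5a, Sall4 and Fbxo15, so their widest peak may lie at either end of the gene.

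Distal H3K27ac summed over these genes did not separate the conditions. Over gene-body and intergenic regions nearest to the 25 starts, called bases were 109.3 and 82.8 kb in control and 101.2 and 101.4 kb in knockout lists, and the groups overlapped. At some single genes the distal sums separated, in both directions. Both knockout lists lay above control at Tbx3 (11248 and 8395 against 13409 and 14493 bases) and below it at Pou5f1 (1343 and 1002 against 501 and 0). A distal region in all 4 lists lay nearest to 9 of the 25 genes, against 5.84% of 19937 named protein-coding genes. The Sox2 region lay 104.4 kb from the start (chr3:34754352-34763375), where a distal enhancer of Sox2 is known in mESCs, and had 8309 and 6541 bases in control and 6311 and 8460 in knockout lists. Esrrb, an orphan nuclear receptor gene of the naive state, had no promoter peak in any list and 6 distal regions in all 4 lists, inside its gene body. This number was the highest of any gene, shared with Jarid2, Magi1 and Tle4. Its widest distal region (chr12:86500252-86507739, 78.6 kb from the annotated start) had 7428 and 6377 against 7226 and 6978 bases, and its distal sums were 24.0 and 19.4 kb against 22.2 and 24.8 kb.

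**Figure D3:**
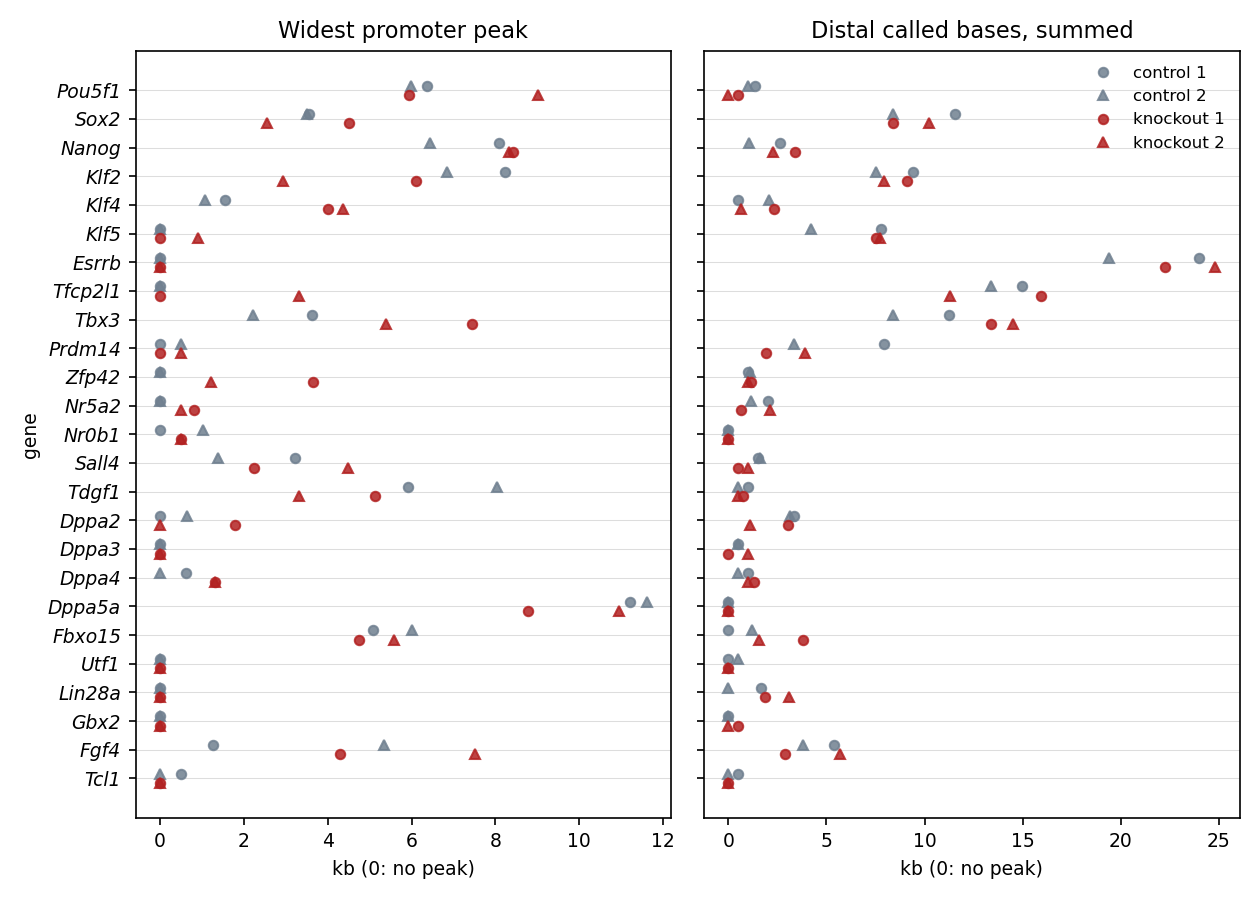
Width of the widest promoter peak (left, kb) and summed called bases of distal regions nearest to the gene (right, kb) for the 25 pluripotency genes. Each point is 1 list (circles replicate 1, triangles replicate 2, grey control, red knockout), and 0 means no peak. In the left panel the knockout points lie right of the control points at Klf4 and Tbx3 and left of them at Klf2 and Tdgf1. The Tbx3 peak may lie at either end of the gene, and Esrrb has distal bases alone.

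Other gene lists were read in the same way, against 6.74% of all protein-coding genes in all 4 lists, 2.83% knockout-only and 0.511% control-only. Of 20 m6A machinery genes 11 were called in all 4 lists and 2 were knockout-only, Mettl3 and Igf2bp2. Of the 11, 6 were wider in both knockout lists, against 35.9% of all genes called in all 4 lists, among them the reader genes Ythdc1 (1403 and 1351 against 1489 and 1604 bp) and Igf2bp1 (1483 and 1417 against 1866 and 1883 bp). One of the 11, the writer subunit gene Rbm15b, was narrower (638 and 869 against 633 and 626 bp). Of 18 acetylation writers, readers and erasers 3 were called in all 4 lists, among them the acetyltransferase gene Ep300 (3516 and 2205 against 2242 and 2427 bp) and the acetyl-lysine reader gene Brd2 (4836 and 4190 against 4455 and 5122 bp), and 1 was knockout-only, the deacetylase gene Hdac1 (912 and 628 bp). Of 23 targets of LIF, WNT, BMP and ERK signalling 2 were called in all 4 lists (Smad7 and Spry2), near the share of all genes, and 1 was control-only (Lefty2, 501 and 501 bp). Of 20 housekeeping genes 9 were called in all 4 lists, 4 of them wider in both knockout lists, such as Actb (1559 and 2167 against 3108 and 3011 bp), and 1 was knockout-only (Psmb2, 775 and 501 bp). No strand was known for Igf2bp1, Hdac1, Smad7, Lefty2, Actb and Psmb2, so their peaks may lie at either end of the gene.

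Over all protein-coding genes 66.5% had no promoter peak in any list. The number without one was 17 of 22 germ layer regulators, 10 of 12 primitive endoderm genes, 6 of 6 genes of 2-cell-like cells, 6 of 10 trophectoderm genes and 6 of 15 formative and primed genes. Of the 15 formative and primed genes 2 were called in all 4 lists, the DNA methylase gene Dnmt3a and Nodal, where the widths were 6382 and 3745 against 7707 and 7492 bp. Of 22 germ layer regulators, 12 fibroblast (feeder) genes, 12 primitive endoderm genes and 6 genes of 2-cell-like cells, 0 were called in all 4 lists or in both lists of 1 condition alone. All 12 fibroblast genes, Col1a1 and Thy1 among them, lacked a promoter peak in every list. Of 10 trophectoderm genes 1 was knockout-only (Tfap2c, 501 and 501 bp, at either end of the gene), and Cdx2 and Gata3 had no promoter peak. As a limited check of cell type, Pou5f1, Sox2 and Nanog were among the 11 of 25 pluripotency genes called in all 4 lists. Another 5 of the 25 had no promoter peak in any list. Housekeeping genes were called in all 4 lists at 9 of 20, so such a call is not particular to the cell type. The lack of a peak at fibroblast genes is also the state of most genes.

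The H3K27ac promoter regions were compared with the H3K4me3 lists of the same cells, which were longer in the knockout (2859 and 2431 peaks in control, 8131 and 8055 in knockout). Of promoter H3K27ac peaks, 24.9% and 27.8% in control and 64.8% and 65.6% in knockout lists overlapped a peak of the H3K4me3 list with the same condition and replicate number. The means lay 38.8 points apart (exact permutation p = 0.33). With the lists of each mark cut to the length of the shortest, keeping the widest peaks, the difference was 10.7 points. This cut left control replicate 2 whole and took the narrowest peaks from the other lists, so it did not match the lists in length alone. Gene-body peaks overlapped H3K4me3 at 1.11% and 0.927% against 3.00% and 3.30%, and intergenic peaks at 0.991% and 0.593% against 2.55% and 2.23%. At equal length the gene-body difference fell from 2.13 to 0.186 points, and the intergenic difference turned from 1.598 to -0.457 points. At most 3.30% of the gene-body or intergenic H3K27ac peaks of a list touched an H3K4me3 peak. The H3K4me3 lists themselves held few such peaks, 449 to 964 gene-body and 291 to 710 intergenic. Which antibody was used cannot be told from these overlaps.

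Of the 579 knockout-only promoter regions, 9.84% and 10.2% touched an H3K4me3 peak of the control lists and 69.3% and 66.8% one of the knockout lists. Of the 1469 promoter regions in all 4 H3K27ac lists these shares were 37.0% and 40.2% against 79.4% and 78.8%. Of the 139 control-only regions they were 16.55% and 15.8% against 27.3% and 29.5%. H3K4me3 calls were thus more frequent in the knockout lists in all 3 groups, control-only regions included. The part of the longer H3K4me3 lists in these region shares was not tested. The equal-length lists above compared peaks by class, not these 3 groups. H3K27me3, the Polycomb mark, touched at most 10 of the 579 knockout-only promoter regions (1.73%) in any H3K27me3 list. The counts were 1 and 4 with the control and 9 and 10 with the knockout H3K27me3 lists. The knockout H3K27me3 lists were longer, at 11349 and 11446 peaks against 6312 and 7203, and the part of this was not tested. H3K27me3 touched at most 3 of the 139 control-only regions (2.16%) and at most 1 of the 1469 in all 4 lists. The share over all promoter regions is not given here.

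**Figure D4:**
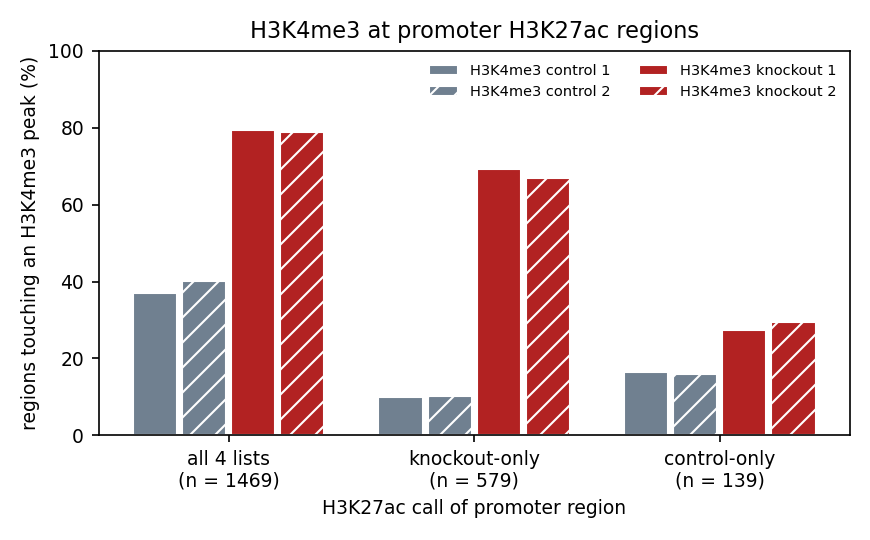
Share of promoter H3K27ac regions that touch an H3K4me3 peak (y axis, %), for regions called in all 4 H3K27ac lists, knockout-only and control-only regions (x axis, number of regions below). Each bar is 1 H3K4me3 list (grey control, red knockout, hatched replicate 2). The red bars are higher in every group, at 69.3% and 66.8% against 9.84% and 10.2% in the knockout-only regions.

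Promoters called in all 4 lists, or in both lists of 1 condition alone, held more CpG than uncalled promoters. In a window from 250 bases before to 50 after the first listed start, the median number of CpG was 25 for genes called in all 4 lists, 23 for knockout-only, 21 for control-only and 7 for genes called in no list, against 13 over the 17492 protein-coding promoters with a sequence. Of the genes in each group 79.8% to 83.9% had a sequence. The GC box was present, on either strand, in 68.3%, 68.1%, 63.8% and 36.2% of these groups, against 46.3% of all. The ETS site was present in 20.5%, 25.5%, 21.3% and 7.31%, against 11.9%, and the TATA box in 7.95%, 5.78%, 11.7% and 16.7%, against 13.3%. Knockout-only and control-only promoters lay closer to each other than to uncalled promoters in CpG, GC box and ETS site. The same held for the E-box (10.56% and 10.64% against 6.56%) and the NRF1 half-site (5.58% and 4.26% against 2.41%). In the TATA box (above), the CCAAT box (43.2% and 38.3% against 39.5%) and the octamer (0.8% and 3.19% against 1.87%), control-only promoters lay closer to uncalled than to knockout-only promoters. A sequence was at hand for 94 control-only, 502 knockout-only and 11610 uncalled genes, so the rarer matches rest on few genes. A match to these letters does not show that a factor binds there.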

How the data were processed

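H3K27ac was measured by ChIP-seq with spike-in chromatin in 2 control and 2 knockout libraries, per the labels' protocols. The submitters' processing notes name CASAVA, Trimmomatic 0.38, Bowtie2 2.4.1, SAMtools, HOMER and the mm10 build. Peak caller settings, the use of inputs and of the spike-in were not given in the sources used here. The deposited lists give positions, and their score column holds the same value for every peak, so depth is unknown and no interval on counts is given.

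Peaks were assigned to classes with RefSeq gene spans and starts (GRCm38.p6), without pseudogenes and immunoglobulin or T cell receptor segments. Peaks were merged when they shared 1 bp. The first plan was to use stranded starts. Since the tables give a strand for 17492 of 21900 protein-coding genes, both ends served for the others, which departs from that plan. Lists were compared by the exact two-sided permutation test (6 assignments, smallest p 0.33), which measures only the spread between these samples. Scripts ran in Python 3.11.15 with numpy 2.4.6 and pandas 2.3.3 and were tested on simulated data.

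Named were Mettl14 and Mettl3, per class the 8 knockout-only and 8 control-only regions with the largest called bases in the smaller calling list, the 8 widest regions in all 4 lists, the 6 with the largest gap in each direction, and up to 6 members per call of 11 gene lists. Of 184 listed genes 183 were found. Predicted genes were counted and not named. A few regions and genes that this rule names are not reported here. The members and lists were chosen with earlier results of these data known. Alternatives were other windows, classes by midpoint, protein-coding genes alone, a 50% overlap, peaks wider than 501 bp, lists at equal length, a replicate block and each list left out. Equal length kept the widest peaks of each list up to the length of the shortest, with ties taken in order of chromosome and position. The Mettl3 knockout named in the series' design was not analysed here.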

Additional observations from a re-analysis of the deposited data

How the results depend on the processing

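Under every alternative run, the number and share of promoter peaks, the shares of the other classes, the width of shared promoter regions and the promoter overlap with H3K4me3 kept their direction and the separation of the lists. Log2 differences are given for numbers and widths. With lists at equal length, the numbers of gene-body and intergenic peaks differed by -0.16 and -0.16 with the lists apart, and that of promoter peaks by 0.38. All lists then hold the same total, so the lower gene-body and intergenic numbers are not independent of the higher promoter number. The shared intergenic width differed by 0.0370 with overlapping lists, and the intergenic overlap with H3K4me3 by -0.46 percentage points, a reversal. This setting removed the narrowest peaks of the longer lists. With peaks wider than 501 bp alone, the numbers of gene-body (0.0075) and intergenic peaks (0.0236) and the intergenic width (-0.0321) reversed, and the gene-body width was 0.0512 with overlapping lists. The same setting left 816 knockout-only and 356 control-only regions, of which 226 and 170 were gene-body and 145 and 116 intergenic, with 70 control-only promoter regions and 56 control-only genes. A 50% overlap gave widths of 0.0595 (gene-body) and 0.0214 (intergenic), and classes by midpoint 0.0241 (intergenic), with overlapping lists. Windows at both ends of every gene, an alternative chosen after seeing the data, gave -0.10 for intergenic peaks with the lists apart.

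With the replicate number as a block (replicate block), gene-body peaks differed by -0.0742 in the same direction in both pairs (exact p = 0.5, the smallest possible), and no other call changed. Nothing in the labels says that equal numbers pair the libraries.

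With 1 list left out, knockout-only regions numbered 2090 to 7797 and control-only regions 1450 to 7897. For promoter regions these were 949 to 2057 and 322 to 1164, for gene-body regions 723 to 3838 and 681 to 4391, for intergenic regions 418 to 1902 and 428 to 2342, and for genes 1000 to 1604 and 285 to 630. Fewer lists are then needed for a call. The number of gene-body peaks differed by -0.17 to 0.0183, that of intergenic peaks by -0.19 to -0.0025, the gene-body width by 0.0847 to 0.23 and the intergenic width by 0.0292 to 0.15. For the other reversals and lost separations the cause was not tested. Depth is unknown, so a missing peak does not show that the mark is absent.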
